A study of Homo sapiens with 6 samples.

Results

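The response of U373MG cells to ET-770-DR was read from 2 of the 6 arrays of the series: 1 array of cells exposed to ET-770-DR and 1 array of cells exposed to dimethyl sulfoxide (DMSO) at the volume share that the compound brought with it. The compound array was set against that DMSO array alone, and probes with exactly 1 gene symbol were averaged into 18417 genes. U373MG is an established human glioblastoma cell line, grown in DMEM with fetal bovine serum, penicillin and streptomycin, and both arrays come from that 1 line, so they hold tumor cells in culture without the other cells of a brain tumor. ET-770-DR was given at 1.70 nM, its 50% inhibitory concentration (IC50), and RNA was taken 24 hours after exposure. The remaining 4 arrays hold cells exposed to ET-770 at 4.83 nM and to renieramycin M (RM) at 3.10 nM, each for the same 24 hours and each with its own DMSO array. Because these doses differ, their values are set beside those of ET-770-DR without a comparison between the compounds. Each arm has 1 array, so the differences have no replicate check, no error and no p-value.

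ET-770 belongs to the ecteinascidins, tetrahydroisoquinoline alkaloids first obtained from a marine tunicate, and is related to trabectedin (ET-743), which is used against soft tissue sarcoma. ET-770-DR carries a pyridinecarbonyl group on the 2'-N atom of ET-770. Drugs of this class bind guanines in the minor groove of DNA, and they are known for disturbing transcription and transcription-coupled repair. Glioblastoma cells in culture spread on a self-made matrix, move by integrins and the actin cytoskeleton, and express many adhesion molecules and guidance receptors of developing neural tissue. Several of the genes that encode those proteins are among the longest of the genome.

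The deposited values are log2 signals made by the robust multiarray average (RMA) method, so that a difference of 1 is a 2-fold change. The median gene had a log2 signal of 7.28 in DMSO and of 7.22 in ET-770-DR, and over all genes the pair of arrays correlated at 0.961. The labelled cell type was checked by its markers in the DMSO array. Vimentin (VIM, 12.91), CD44 (13.05), the stem cell factor SOX2 (11.63) and nestin (NES, 8.61) were bright, while the astrocyte filament GFAP was at 7.33, close to the median of all genes. Of markers of other cell types, the leukocyte antigen PTPRC was at 3.85 and the endothelial PECAM1 at 3.89. The epithelial EPCAM was at 4.00 and the neuronal nuclear protein RBFOX3 at 5.32. Other members of the same lists were brighter: CD68 of the leukocyte list at 10.18, the epithelial KRT18 at 8.49, the neuronal SNAP25 at 7.24 and the endothelial CDH5 at 6.86. Low signals were thus not shared by all markers of other cell types, and probes of different genes are not read on a common scale. The genes on the lists of neuronal, oligodendrocyte, leukocyte, endothelial, epithelial and reference genes held none past 2-fold in either direction. GAPDH (log2 change -0.07) and ACTB (-0.17), commonly used as references, lay near 0.

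Genes were lowered more often than they were raised after exposure to ET-770-DR. Of 18417 genes, 391 (2.12%) had a signal more than 3-fold lower than in DMSO, and 94 (0.51%) had one more than 3-fold higher. At 2-fold, 909 genes (4.94%) were lower and 708 (3.84%) higher. Among the 485 genes past 3-fold, 80.6% were lower. The lowered genes were bright in vehicle-treated cells, with a median log2 signal of 9.04 in DMSO and 6.85 in ET-770-DR, and 205 of them were over 4-fold and 29 over 8-fold lower. The raised genes began at a median of 7.13, stood at 9.07 in ET-770-DR, and 8 of them were over 4-fold higher. In RNA from a whole culture, a loss of cells that express a gene and less RNA of it per cell cannot be told apart.

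**Figure D1:**
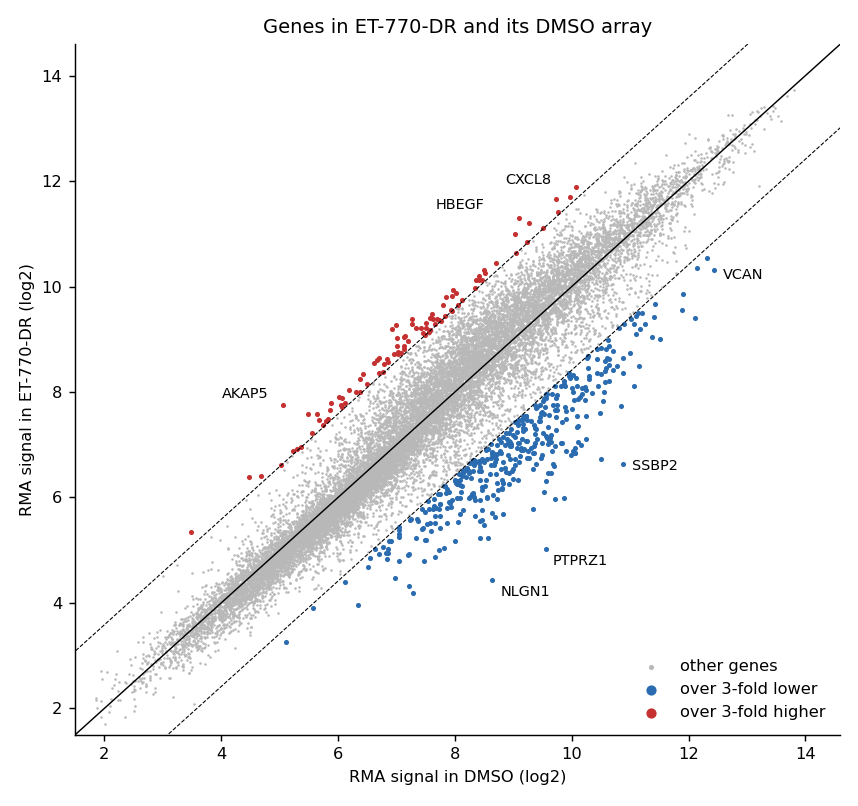
Log2 RMA signal of each of 18417 genes in the DMSO array (x axis) and the ET-770-DR array (y axis), 1 array each. The solid line marks equal signal and the dashed lines 3-fold; the 391 genes in blue lie below the lower dashed line and the 94 in red above the upper one, and several named genes are labelled.

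The calls close to the threshold were separated by little. SFMBT2 (log2 change -1.59) and PHACTR2 (-1.59) were just past 3-fold lower, and EPB41 and VPS8 (both -1.58) just short of it. CCDC59 and ZNF724 (both 1.59) were just past 3-fold higher, and AIRIM and ZNF615 (both 1.58) just short. The vehicle arrays show how far arrays can differ without a compound. As deposited, 0 genes were over 3-fold higher and 120 over 3-fold lower in the DMSO array used here than in that of the ET-770 experiment, and 149 and 448 than in that of the RM experiment. After quantile normalization of the 6 arrays these counts became 8 and 13, and 212 and 293. On the quantile normalized scale, all 391 lowered genes lay below the 3 DMSO arrays, as did 34.6% of all genes, and 87 of the 94 raised genes lay above them, as did 21.3% of all genes. Against the averaged DMSO signal of the 3 experiments, without further normalization, 590 genes were over 3-fold lower and 64 over 3-fold higher, and the median of all genes was -0.25 in place of -0.03.

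The deepest loss was that of PTPRZ1, a receptor tyrosine phosphatase of glial progenitors and gliomas. Its log2 signal was 9.55 in DMSO and 5.03 in ET-770-DR, 23.1-fold lower. SSBP2, whose protein binds DNA as a single strand, stood at 10.87 in DMSO and 6.63 in ET-770-DR, 18.9-fold lower, and neuroligin 1 (NLGN1), a synaptic adhesion protein, at 8.63 and 4.44, 18.2-fold lower. CD180, a relative of the Toll-like receptors, was 14.7-fold lower, from 9.87 to 5.99. The ephrin receptor EPHA3 (10.51 to 6.73) and protein kinase D1 (PRKD1, 9.72 to 5.97) were 13.7-fold and 13.4-fold lower. The next were the cell surface protein TENM2, the membrane scaffold CASK, the phosphoinositide phosphatase relative SBF2, the Mediator kinase CDK19, the netrin receptor UNC5C, the adhesion protein LPP, NLGN4X, protein kinase C alpha (PRKCA) and phospholipase C epsilon (PLCE1), between 11.8-fold and 9.06-fold lower. Genes from surface receptors to lipid signaling enzymes thus made up the 15 largest losses, and CD180 alone among them spans less than 100 kb of the genome.

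The largest gain was that of AKAP5, which tethers protein kinase A at the membrane. Its log2 signal was 5.07 in DMSO and 7.75 in ET-770-DR, 6.42-fold higher. OSR2, a transcription factor of skeletal development, was at 7.0 and 9.28, 4.86-fold higher, and ZNF844, a zinc finger gene, at 6.93 and 9.19, 4.79-fold higher. HBEGF, a ligand of the EGF receptor, went from 9.09 to 11.30 (4.63-fold), and CDC25A, the phosphatase that releases cyclin-dependent kinases at the start of S phase, from 7.26 to 9.39 (4.38-fold). The other 10 of the 15 largest gains were ZNF684, TLCD1, the glutathione-degrading enzyme CHAC2, the natural killer cell ligand NCR3LG1, ZNF845, TUFT1, ZNF441, ZNF124, the actin-binding protein NEXN and the GABA receptor subunit GABRQ, between 4.24-fold and 3.81-fold higher. Zinc finger genes held 5 of the 15 places.

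The same genes are shown with the arrays of the other compounds. PTPRZ1 went from 10.66 to 7.38 with ET-770 and from 9.59 to 6.93 with RM, SSBP2 from 11.58 to 6.94 and from 10.29 to 7.85, and AKAP5 from 5.23 to 7.51 and from 5.32 to 6.91. These pairs all point the way that the ET-770-DR pair does. Over 3-fold lower with ET-770 were 396 genes, of which 297 were also over 3-fold lower with ET-770-DR, 76.0% of the ET-770-DR genes and 75% of the ET-770 genes. With RM 250 genes were, and the 198 shared ones are 50.6% and 79.2% of the ET-770-DR and RM genes. Of the 94 raised genes, 29 were among 43 raised over 3-fold with ET-770, which is 30.9% and 67.4%, and 7 were among 8 with RM, which is 7.45% and 87.5%. Below 3-fold, all 391 lowered genes were also lower with ET-770 than in its DMSO array, and 389 with RM, while 93 and 91 of the 94 raised genes were higher. The doses were not matched, and no difference between the compounds was tested.

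**Figure D2:**
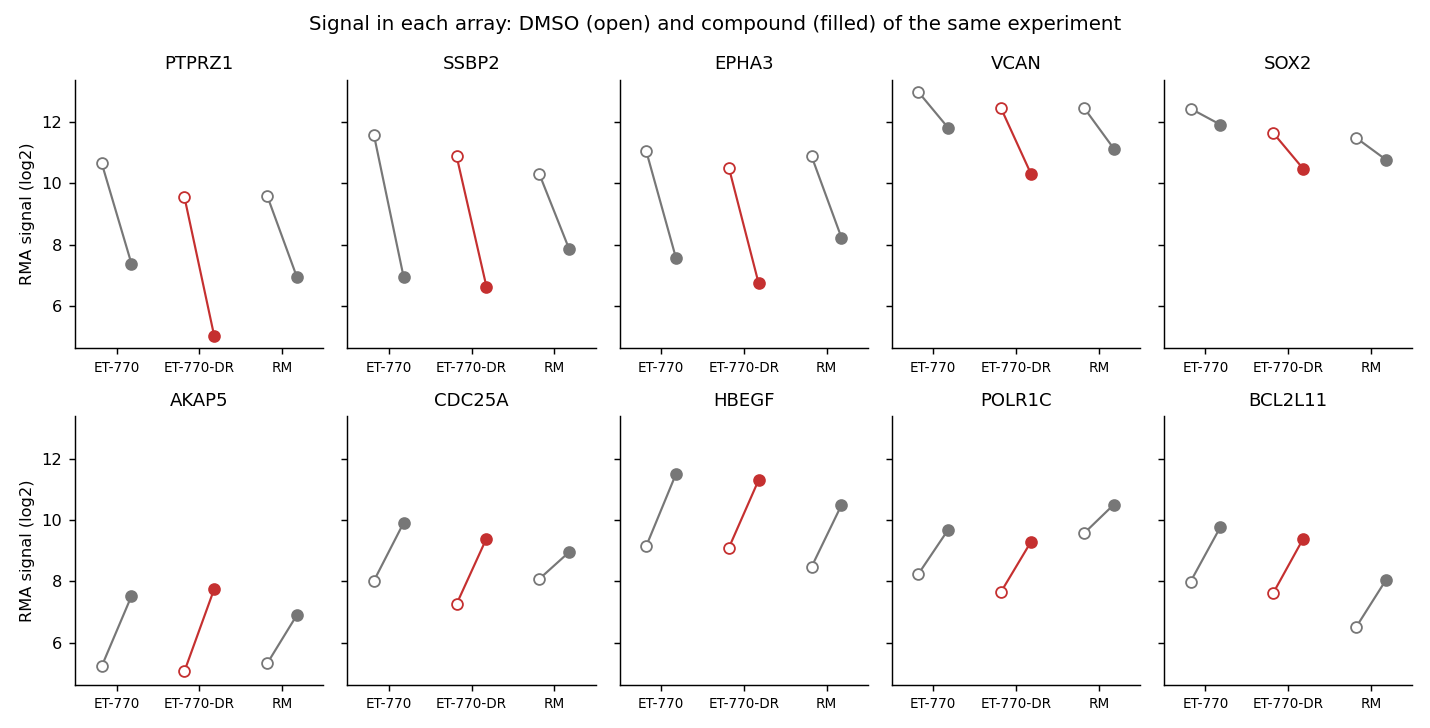
Log2 RMA signal of 10 genes in each of the 6 arrays, with an open circle for DMSO and a filled circle for the compound of the same experiment, and ET-770-DR in red. The 5 genes of the upper row are lower and the 5 of the lower row higher in the compound array of each pair. Each circle is 1 array and the doses differ (4.83, 1.70 and 3.10 nM). POLR1C in ET-770-DR (9.28) lies below its signal in the DMSO array of RM (9.56).

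Long genes held nearly all of the losses. The lowered genes had a median genomic length of 286 kb, against 24.5 kb over all genes with a known length and 17.0 kb over the raised ones. Of the 390 lowered genes with a length, 358 (91.8%) spanned more than 100 kb, as did 3119 (17.0%) of all genes. None of the 94 raised genes did, and the longest of them spanned 66.7 kb. The length of a gene, from first to last base with its introns, came from a current gene table and not from the array.

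The share of lowered genes grew from class to class. Over 3-fold lower were 5 of 5245 genes under 10 kb, 7 of 4975 between 10 and 30 kb and 20 of 5049 between 30 and 100 kb. Between 100 and 300 kb, 181 of 2390 genes (7.57%) were, and over 300 kb 177 of 729 (24.3%). The classes above 100 kb lay below 0: their median log2 changes were -0.37 and -0.54, and 82.6% and 88.8% of their genes were lower than in DMSO to any extent, while the medians of the 3 shorter classes lay between 0.00 and 0.10. The longest genes, such as RBFOX1 (log2 signal 4.72 in DMSO) and CNTNAP2 (4.69), were dim in both arrays. Among genes with a mean log2 signal of at least 8 over the 6 arrays, a filter added after the data were seen, 90 of 135 genes over 300 kb (66.7%) were over 3-fold lower and the median log2 change of these 135 was -1.98. Length is tied to other properties of a gene, such as its tissue of expression, whose part in the result was not tested. The same classes gave medians of -0.40 and -0.49 with ET-770 and of -0.42 and -0.33 with RM, at their own doses.

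**Figure D3:**
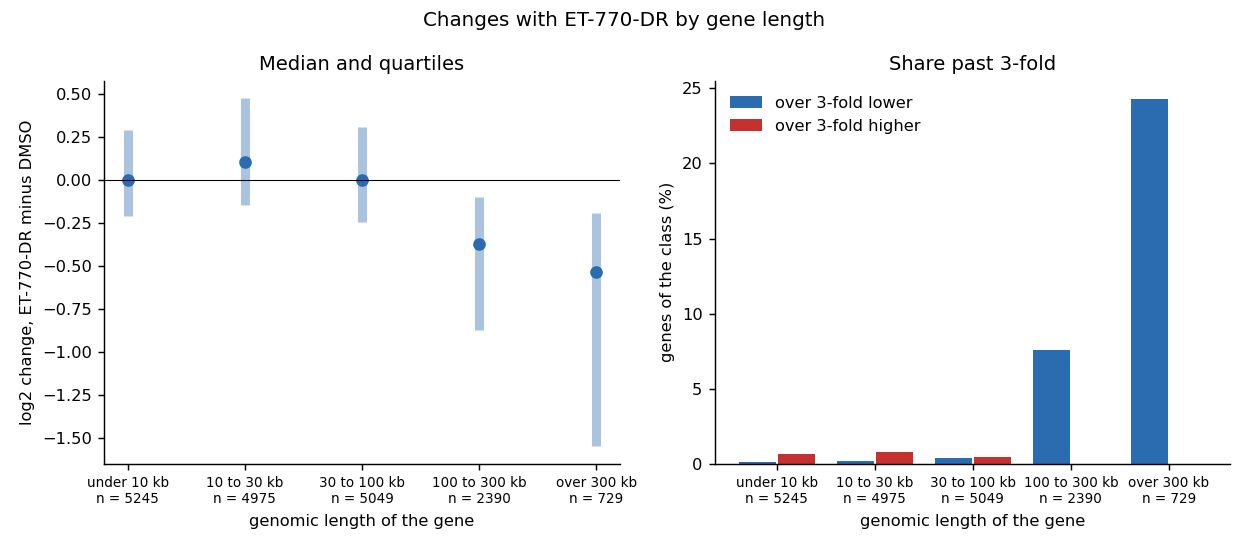
Left, median (points) and quartiles (bars) of the log2 change between ET-770-DR and DMSO in 5 classes of genomic gene length. Right, the percentage of each class that was over 3-fold lower (blue) or higher (red), where lowered genes reach 24.3% over 300 kb and raised genes are at 0 above 100 kb.

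Long genes were not lowered without exception. Bright genes over 100 kb at the same signal in both arrays included the Hippo kinase STK4 (log2 change 0.00), the chromatin regulator KMT2E (0.00), the ubiquitin ligase ARIH1 (0.01) and the reticulum protein RTN4 (-0.01). The highest changes among long genes were those of PARGP1 (1.45), GLMN (1.33) and the Fanconi gene FANCB (1.26). In the other direction, 12 genes under 30 kb were over 3-fold lower. CD180 (17.2 kb) led them, followed by the Norrin gene NDP (24.6 kb, log2 change -2.54) and the cannabinoid receptor CNR1 (27.5 kb, -2.39). DDIT4, a stress-induced inhibitor of mTOR, spans 2.11 kb and was at -2.06, IGFBP5, which binds insulin-like growth factors, at -1.98, and NRN1, which encodes neuritin, at -1.78. IFITM10, PRSS35, ST6GALNAC2 and the neural transcription factor SOX21 (-1.67) were the other protein-coding ones. Both remaining genes lie inside long lowered genes: SND1-IT1 (-2.01) in SND1 (-2.12) and MIR218-1 (-1.66) in SLIT2 (-3.13). Probes there cannot tell the inner gene from the intron around it.

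Genes were next read by lists of pathways and families, written from textbook knowledge but with earlier results of these data known. The lists describe these data and give no independent support. Their medians are to be read against a median of -0.03 over all genes, and their counts past 2-fold and 3-fold against the shares of all genes given above. Counts of members lower or higher to any extent are to be read against 52.96% of all genes lower than in DMSO. Of the 46 pathway and family lists, those for the cytoskeleton, neural adhesion and the matrix had the lowest medians, and those for ribosome biogenesis and DNA replication the highest.

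**Figure D4:**
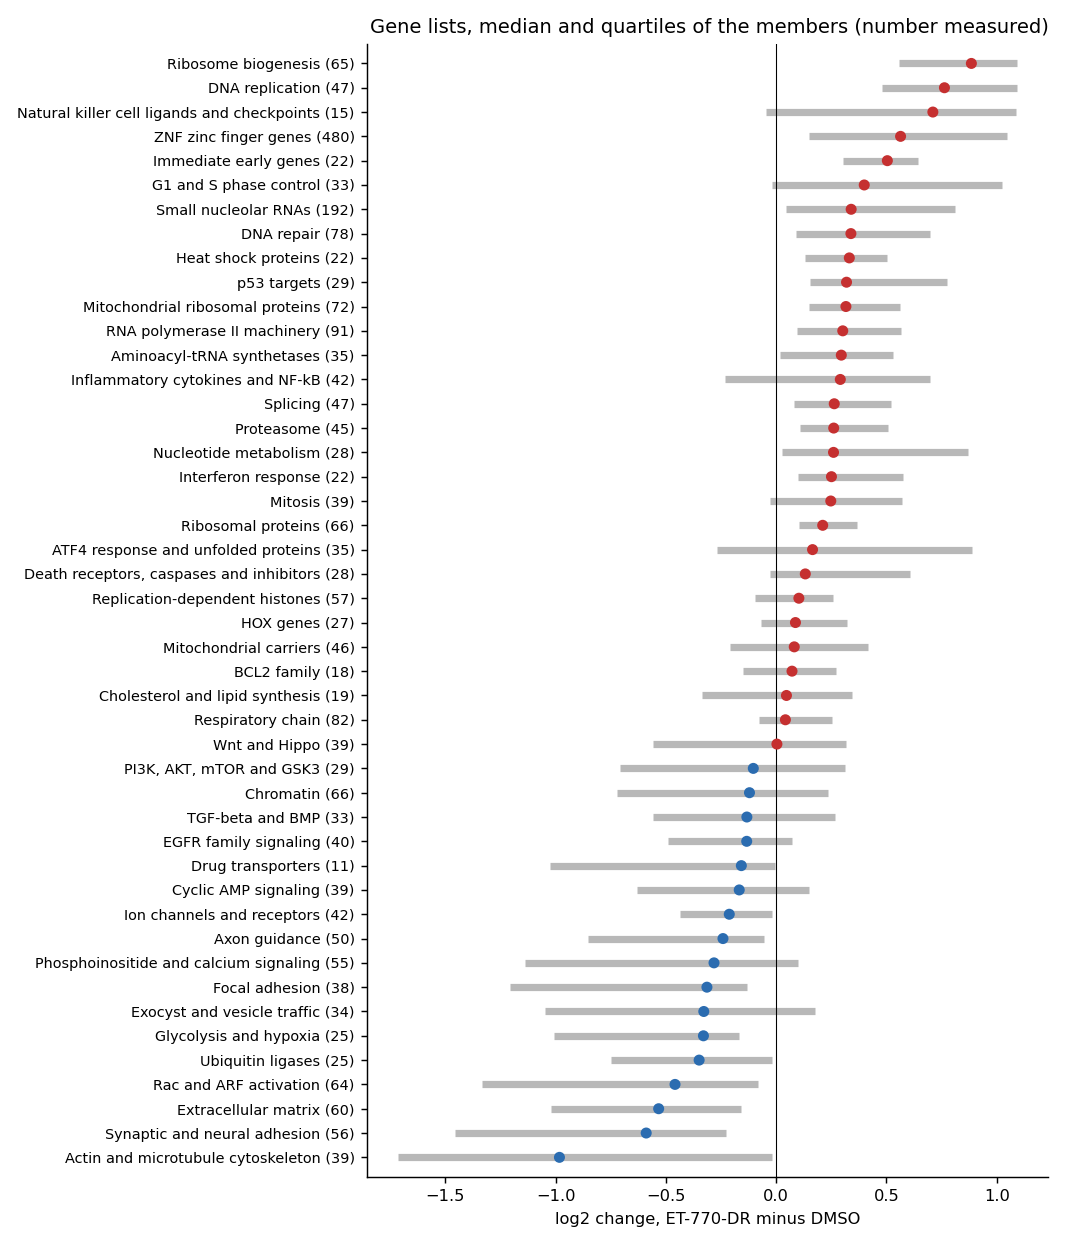
Median (points) and quartiles (bars) of the log2 change between ET-770-DR and DMSO over the members of 46 gene lists, with the number of measured members in brackets; the median over all 18417 genes is -0.03. The lists run from ribosome biogenesis at 0.89 to the actin and microtubule cytoskeleton at -0.98 and some lists with medians near 0, such as the ribosomal proteins, turn to mostly lower members when the averaged DMSO signal of all experiments is the control.

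Adhesion genes of neural tissue were lowered as a group. Of 56 measured, 51 were lower than in DMSO (91.1%, against 52.96% of all genes), with a median log2 change of -0.59. Over 3-fold lower were 14, against 1 over 3-fold higher. All 14 were among the 49 members over 100 kb, whose median was -0.68, against -0.25 over the 7 shorter ones. Of all genes, 82.6% of those between 100 and 300 kb and 88.8% of those over 300 kb were lower too. Besides PTPRZ1, NLGN1, NLGN4X, TENM2 and CASK, the neural adhesion molecule NRCAM was 6.70-fold lower, with a log2 signal of 9.71 in DMSO and 6.97 in ET-770-DR. The raised member was LRRTM2, a short postsynaptic adhesion gene of 6.42 kb, which went from 6.83 to 8.63. Among 50 genes of axon guidance, 40 were lower and 9 over 3-fold, with none over 3-fold higher. All 9 were among the 30 members over 100 kb, whose median was -0.45, against -0.15 over the 20 shorter ones. EPHA3 and UNC5C led, followed by SLIT2, the ligand that repels growing axons (10.24 to 7.11), and its receptor ROBO1 (10.05 to 6.94). The semaphorin SEMA3A (11.51 to 9.0) and the neuropilin NRP2 (11.01 to 8.73) came next. SLIT2 and ROBO1, a ligand and its receptor, were thus lower together, while EPHA2 was at 9.47 and 10.53. Of 21 semaphorins, plexins and neuropilins, 4 were over 3-fold lower and the median was -0.22.

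The cytoskeleton list had the lowest median of all, -0.98 over 39 genes, of which 12 were over 3-fold and 19 over 2-fold lower. LPP, the formin DIAPH2 (7.73 to 5.00), which lengthens actin filaments, the microtubule-associated protein MAP2 (9.0 to 6.35), the formin FMNL2 (10.23 to 7.85) and the myosins MYO1E (9.40 to 7.11) and MYO10 (10.18 to 7.97) were the lowest. The 31 members over 100 kb had a median of -1.30, and the 8 shorter ones of 0.05. Length parted the activators of Rac and ARF, the small GTPases of membrane ruffling, in the same manner, with medians of -0.70 over 45 long and 0.05 over 19 shorter members. Of these 64 members 13 were over 3-fold lower and none over 3-fold higher. The engulfment adaptor ELMO1 went from 9.69 to 6.64 and its partner DOCK1, an exchange factor for Rac, from 8.92 to 6.25. DOCK9 (8.55 to 5.99) and the ARF exchange factor PSD3 (8.47 to 5.58) were lower as well. RAC1 itself, a gene of 29.4 kb, stood at 10.80 and 10.93, and ELMO2 at 9.05 and 9.36.

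Lipid and calcium signaling lost several of its enzymes. Of 55 genes 11 were over 3-fold and 15 over 2-fold lower, and none was over 2-fold higher. Phospholipases C split a membrane lipid into IP3, which opens calcium channels of the endoplasmic reticulum, and diacylglycerol, which activates protein kinases C and D. PLCE1 (9.99 to 6.81) and PLCB1 (9.6 to 6.46), the IP3 receptor ITPR1 (8.72 to 5.96), PRKCA (9.65 to 6.46) and PRKD1 were lowered, so that members of every step were among the losses. The 33 members over 100 kb had a median of -0.90 and the 22 shorter ones of 0.28. In cyclic AMP signaling, 3 of 39 genes were over 3-fold lower, namely the phosphodiesterase PDE1C (9.08 to 6.34) and the kinase anchors AKAP13 (8.32 to 6.07) and AKAP6 (7.65 to 5.97), whereas the short anchor AKAP5 had the largest gain of all genes.

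Matrix and matrix receptors were also lower. Of 60 genes of the extracellular matrix, 53 were lower than in DMSO (88.3%, against 52.96% of all genes) and 7 over 3-fold, with a median of -0.53 and none over 2-fold higher. Versican (VCAN), a large proteoglycan of gliomas, had a log2 signal of 12.44 in DMSO and 10.31 in ET-770-DR. The matrix protease MMP16 (7.48 to 4.79), glypican 6 (GPC6, 9.34 to 6.85), fibrillin 1 (FBN1, 8.46 to 6.14), ADAM12 (10.63 to 8.62) and collagen COL11A1 (8.86 to 6.99) followed. Here the 34 members up to 100 kb had a median of -0.31, below that of all genes, and the 26 longer ones of -1.05. All 16 integrin chains measured were lower to some extent. The beta chains ITGB3 (11.89 to 9.55), ITGB8 (11.25 to 9.28) and ITGB4 (11.14 to 9.51), which span less than 100 kb, and the alpha chains ITGA2 (10.49 to 8.35) and ITGA9 (8.2 to 6.39) were over 3-fold lower. ITGB1, the beta chain that most integrins share, was at 10.60 and 10.34. Downstream of integrins, focal adhesion kinase (PTK2) went from 10.29 to 8.31 and the SRC family kinase FYN from 9.52 to 7.59, while the scaffold PXN was at 8.32 and 8.09.

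Among growth factor pathways the losses were scattered. The EGF receptor (EGFR) had a log2 signal of 9.81 in DMSO and 8.60 in ET-770-DR, and its ligands moved apart: TGFA, of 107 kb, went from 10.78 to 8.49 and HBEGF, of 13.8 kb, from 9.09 to 11.30. The adaptor SHC4 was over 3-fold lower (8.04 to 6.26), which with TGFA made 2 of 40 genes of this list. In the PI3K and mTOR pathway 4 of 29 genes were over 3-fold lower and none over 2-fold higher: RPTOR, the scaffold of mTOR complex 1 (8.71 to 6.45), DDIT4 (10.43 to 8.37), the kinase GSK3B (8.41 to 6.66) and the PI3K subunit PIK3CB (8.87 to 7.22). AKT1 (10.76 and 10.81) and GSK3A (10.52 and 10.92), both short genes, were close to their DMSO levels. The BMP receptors BMPR2 (9.90 to 7.65) and BMPR1B (7.44 to 5.40), the Hippo kinase STK3 (8.42 to 6.58) and the Wnt effector TCF7L2 (9.75 to 7.94) were past 3-fold too, while YAP1 was at 10.26 and 9.95.

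Chromatin genes divided by length. Of 66, 10 were over 3-fold lower and none over 3-fold higher, with medians of -0.69 over 35 long and 0.26 over 31 shorter members. The elongation factor partner MLLT3 (8.69 to 5.64), the histone demethylase KDM4C (8.43 to 5.56), the acetyltransferase coactivator NCOA1 (9.33 to 6.53), KAT6B (9.10 to 6.67), the methyltransferase KMT2C (10.63 to 8.21) and KAT2B (9.37 to 7.20) led. Of the Mediator and its kinase module, CDK19 and MED13L (10.10 to 7.87) were lowered. Losses also reached vesicle traffic, where the exocyst subunits EXOC4 (9.49 to 7.03), EXOC6B (8.92 to 6.46) and EXOC2 (9.71 to 7.66) and the active zone protein ERC1 (8.81 to 6.16) were over 3-fold lower. The drug efflux pumps ABCC4 (8.54 to 6.34) and ABCC1 (9.59 to 8.07) were lower as well, the second by less than 3-fold, as was the cholesterol exporter ABCA1 (9.37 to 7.04). ABCB1 (5.09 and 5.03) and ABCG2 (4.61 and 4.45), the best known multidrug pumps, were dim in both arrays.

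Glycolysis and the response to low oxygen stood lower with few long genes. Of 25 members, 22 were lower than in DMSO, 7 over 2-fold and 1 over 3-fold, with a median of -0.33, and only 2 span more than 100 kb. Hexokinase 2 (HK2), which commits glucose to glycolysis, went from 9.45 to 7.75. The glucose transporter SLC2A1 stood at 13.21 and 11.90 and the hypoxia-induced NDRG1 at 11.78 and 10.26. Among nucleotide enzymes, dihydropyrimidine dehydrogenase (DPYD, 10.10 to 7.34) and adenosine kinase (ADK, 9.38 to 7.31), both long, were over 3-fold lower, and purine nucleoside phosphorylase (PNP, 9.28 to 11.20), which is short, was over 3-fold higher. Markers of the glial and glioma state were lower in 15 of 16 cases, with log2 changes of -1.16 for SOX2, -1.01 for FABP7 and -1.0 for S100B and smaller ones for the others.

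Genes of DNA replication were higher as a group. Of 47 measured, 44 were higher than in DMSO, 14 over 2-fold and 1 over 3-fold, and none was over 2-fold lower. The median log2 change was 0.76. The share of lower members was 6.38%, and 34.0% against the mean of the 3 DMSO arrays. With quantile normalization as well, it was 21.3%. All 23 factors that mark and license replication origins were higher, with a median of 0.92. The licensing factor CDT1 was the highest, with a log2 signal of 7.13 in DMSO and 9.04 in ET-770-DR, followed by CDC6 (10.21 to 11.74), which loads the MCM helicase with it. The helicase subunit MCM2 was at 8.63 and 9.93, the sliding clamp PCNA at 10.01 and 10.98 and the ribonucleotide reductase subunit RRM2 at 9.89 and 11.15. On the quantile normalized scale MCM2 (10.14) and PCNA (11.17) lay below the highest DMSO array (10.25 and 11.66). CDT1, CDC6 and RRM2 lay above it. In the control of G1 and S phase 4 of 33 genes were over 3-fold higher and none over 3-fold lower. They were CDC25A, cyclin E2 (CCNE2, 9.74 to 11.65), which drives entry into S phase, and the transcription factors E2F8 (8.50 to 10.31) and E2F2 (7.03 to 8.73). CCNE1 and CDK2 were 2.19-fold and 2.05-fold higher, CCND1 was at 9.70 and 10.10, and RB1, a gene of 178 kb, at 10.99 and 9.97. Mitotic genes had none past 2-fold among 39. CCNB1 was at 10.21 and 10.07 and PLK1 at 11.45 and 11.19.

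Promoter sequences of raised genes are shown for their motifs, since E2F factors are known to bind promoters of replication genes. Windows from 250 bases before to 50 bases after the gene start were taken from RefSeq on GRCh38.p14, where 73 of the 94 raised genes have 88 windows and 324 of the 391 lowered genes have 605. The E2F motif was searched as TTTGGCG or TTTCGCG on both strands. It was in 9 of the 88 windows of raised genes (10.2%), in 20 of the 605 of lowered genes (3.31%), in 23 of 91 of the replication and G1 and S phase lists (25.3%) in 1120 of all 35116 windows (3.19%) and in 3.97% of the 20109 windows of genes on the array. The AP-1 motif TGAGTCA was in 7 of the 88 (7.95%), 20 of the 605 (3.31%), 4.95% of all windows and 3.98% of those of genes on the array. The SP1 motif GGGCGG was in 56.8% of raised and 52.1% of lowered windows, in 45.0% of all and in 57.3% of those of genes on the array. The CRE core TGACGT was in 5.68%, 9.75%, 7.98% and 8.99% in the same order. The 150 bases before the start are printed 5' to 3' on the strand of the gene for 4 raised genes with the E2F motif and 2 with AP-1, the motif in capitals.
E2F2 promoter, chr1:23531234-23531383, minus strand: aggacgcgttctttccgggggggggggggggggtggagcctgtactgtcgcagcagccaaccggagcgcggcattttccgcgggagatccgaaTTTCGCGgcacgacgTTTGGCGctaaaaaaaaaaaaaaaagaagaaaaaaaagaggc
CDC25A promoter, chr3:48188418-48188567, minus strand: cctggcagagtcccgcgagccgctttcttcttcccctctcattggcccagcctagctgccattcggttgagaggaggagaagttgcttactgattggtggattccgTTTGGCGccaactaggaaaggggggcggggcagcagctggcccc
CDT1 promoter, chr16:88803639-88803788, plus strand: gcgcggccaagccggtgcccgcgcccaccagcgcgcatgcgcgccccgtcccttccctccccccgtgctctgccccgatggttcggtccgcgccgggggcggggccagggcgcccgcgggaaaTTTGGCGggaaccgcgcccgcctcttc
MYB promoter, chr6:135181158-135181307, plus strand: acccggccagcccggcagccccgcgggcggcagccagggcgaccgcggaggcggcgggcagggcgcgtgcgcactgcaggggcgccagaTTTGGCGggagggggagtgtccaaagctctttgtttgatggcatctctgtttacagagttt
CXCL8 promoter, chr4:73740419-73740568, plus strand: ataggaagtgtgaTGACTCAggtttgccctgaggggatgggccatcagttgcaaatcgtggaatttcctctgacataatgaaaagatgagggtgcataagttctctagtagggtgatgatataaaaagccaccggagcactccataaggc
CPA4 promoter, chr7:130293011-130293160, plus strand: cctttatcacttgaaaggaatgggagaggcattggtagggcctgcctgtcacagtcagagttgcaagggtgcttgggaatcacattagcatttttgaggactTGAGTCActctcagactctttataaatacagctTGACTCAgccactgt
The E2F motif begins 57 and 42 bases before the start of E2F2, 44 before that of CDC25A, 27 before that of CDT1 and 61 before that of MYB, a transcription factor that was 3.15-fold higher. AP-1 motifs begin 137 bases before the start of CXCL8, the chemokine interleukin 8, and 48 and 15 before that of the carboxypeptidase gene CPA4, which was 3.68-fold higher. A motif match describes letters and not a bound factor.

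Genes of DNA damage signaling were higher by modest amounts. Of 29 targets of p53, 26 were higher, 6 over 2-fold and 1 over 3-fold, with a median of 0.32. The share of lower members was 10.3%, and 41.4% against the mean of the 3 DMSO arrays. GADD45A, a growth arrest gene, went from 8.71 to 10.44, and CDKN1A, which encodes the kinase inhibitor p21, from 8.57 to 9.84, while MDM2 was at 10.37 and 10.69. Of 78 DNA repair genes, 64 were higher, 8 over 2-fold, against 5 over 2-fold lower. Claspin (CLSPN), which activates the checkpoint kinase CHK1 at stalled forks, was over 3-fold higher (7.94 to 9.82), and both of its probes were higher. XRCC4, an end-joining factor encoded by a gene of 297 kb, was over 3-fold lower (9.70 to 6.59). The nucleotide excision repair list, whose pathway recognizes the DNA adducts of this drug class, had none of 19 over 2-fold higher and 1, MNAT1 (8.89 to 7.65), over 2-fold lower. XPA was at 7.89 and 8.52 and XPC at 6.46 and 7.22.

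In the BCL2 family, BCL2L11 stood apart. It encodes BIM, which triggers the mitochondrial path of apoptosis, and its log2 signal was 7.62 in DMSO and 9.39 in ET-770-DR, 3.39-fold higher. No other member of the 18 measured was past 2-fold. The antiapoptotic MCL1 was at 10.24 and 10.99, BCL2 at 6.91 and 6.59 and BCL2L1 at 9.99 and 10.13, and the proapoptotic PMAIP1, which encodes NOXA, was at 10.59 and 11.35, BAK1 at 8.11 and 8.99, BAX at 9.6 and 9.74 and BBC3 at 7.90 and 7.82. Of 28 death receptor, caspase and inhibitor genes none was past 3-fold. CASP8 was at 6.72 and 7.60 and CASP9 at 8.64 and 7.99, and the giant inhibitor BIRC6, of 262 kb, at 9.79 and 8.52. Both lists change their majority with the control. The share of lower members in the BCL2 family is 44.4% here and 83.3% against the mean of the 3 DMSO arrays. That mean was not normalized further, and against it the median of all genes is -0.25. With quantile normalization as well, the share is 50%.

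Ribosome biogenesis had the highest median of the lists. Of 65 genes, 62 were higher than in DMSO, 23 over 2-fold and 2 over 3-fold, none was over 2-fold lower, and the median log2 change was 0.89. The assembly factor BRIX1 went from 8.52 to 10.25 and POLR1C, a subunit of RNA polymerases I and III, from 7.66 to 9.28. On the quantile normalized scale, both lay below the highest of the 3 DMSO arrays (10.45 against 10.60 and 9.49 against 9.66). Nucleolin (NCL) was at 10.58 and 11.31, and fibrillarin (FBL), the methyltransferase of the small nucleolar ribonucleoproteins, at 11.22 and 11.57. On the quantile normalized scale NCL lay below the highest DMSO array (11.51 against 12.08) and FBL above it (11.75 against 11.61). Small nucleolar RNAs, which guide the chemical marks of ribosomal RNA, pointed the same way: of 192 measured, 149 were higher, 35 over 2-fold and 7 over 3-fold, with a median of 0.34. SNORD50B (5.68 to 7.47), SNORD1B (4.69 to 6.41), SNORD42A (7.70 to 9.38) and SNORD28 (9.76 to 11.42) led. After quantile normalization SNORD50B (7.70 against 8.81) and SNORD1B (6.64 against 6.76) lay below the highest DMSO array. SNORD42A and SNORD28 lay above it. These RNAs lie in introns of host genes, and the probes cannot part them from the introns. The 66 ribosomal proteins themselves had a median of 0.21 and 2 genes over 2-fold higher. Of them 9.09% were lower, or 74.2% when the averaged DMSO signal of all experiments was the control. With quantile normalization and that control together, 54.5% were lower.

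Stress response genes of the ATF4 group were mixed. ATF4 activates amino acid supply and death genes when translation is restrained. Of 19 genes listed with ATF4, 7 were over 2-fold and 2 over 3-fold higher, against 2 and 1 lower, with a median of 0.69. CHAC2 (7.01 to 9.02), listed here though not an established target of ATF4, and the transcription factor ATF3 (6.31 to 8.01) were over 3-fold higher. The death-promoting factor DDIT3 went from 9.70 to 10.83, and DDIT4 was 4.18-fold lower. The 16 chaperones of the endoplasmic reticulum had a median of -0.12, and HSPA5, the best known of them, was at 12.64 and 12.44. Of both groups together 37.1% were lower than in DMSO, and 54.3% against the mean of the 3 DMSO arrays. With quantile normalization and that mean together the share was 40%. Of 22 immediate early genes, which respond fast to growth signals, 19 were higher with a median of 0.50. The nuclear receptor NR4A2 (7.01 to 8.88) was past 3-fold and MYC (9.14 to 10.41) past 2-fold, while EGR1 was at 9.26 and 10.16, FOS at 7.21 and 7.87 and JUN at 10.06 and 10.62.

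A few genes that immune cells read were higher. Of 42 genes of inflammatory cytokines, their receptors and NF-kB, 3 were over 3-fold higher and 1, the receptor CD180, over 3-fold lower, with 5 over 2-fold higher and 2 over 2-fold lower. The 3 were interleukin 1 alpha (IL1A, 6.38 to 8.25), CXCL8 (9.97 to 11.70) and the interleukin 17 receptor IL17RB (7.80 to 9.66). IL1B was at 6.01 and 6.61 and IL6 at 8.94 and 8.84. The 13 components of the NF-kB system had a median of 0.65, and 12 of them were higher. Of 15 ligands and checkpoints that natural killer and T cells see, 5 were over 2-fold and 2 over 3-fold higher and none over 2-fold lower. The natural killer ligands NCR3LG1 (7.98 to 9.94) and RAET1L (8.05 to 9.65) were past 3-fold. CD274, which encodes PD-L1, stood at 8.10 and 9.40. In the interferon response list the highest of 22 was IRF1 (7.60 to 8.80).

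Zinc finger genes held many of the gains. Genes named ZNF with a number mostly encode KRAB zinc finger proteins, which silence transposable elements and other targets, and many lie in clusters on chromosome 19. Of 480 measured, 396 were higher than in DMSO, 130 over 2-fold and 22 over 3-fold, against 5 and 1 lower, with a median log2 change of 0.56. They made up 22 of the 94 raised genes. The share of lower members was 17.5% here and between 13.0% and 31.9% under the alternatives. The 233 on chromosome 19 had a median of 0.81, with 17 over 3-fold higher and none over 2-fold lower, and the 247 on other chromosomes one of 0.39. The other 1075 genes of chromosome 19 had a median of -0.02. At like length, ZNF genes between 10 and 30 kb had a median of 0.73 and the other 4726 genes of that length one of 0.08. The 31 ZNF genes over 100 kb had a median of -0.21, and ZNF827, of 181 kb, was over 3-fold lower. With ET-770 the 480 genes had a median of 0.45 and with RM of 0.32, at their own doses.

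The highest ZNF gene after ZNF844, ZNF684, ZNF845, ZNF441 and ZNF124 was the pseudogene ZNF833P (5.87 to 7.79). Neighbors on chromosome 19 are similar in sequence, so a probe may read more than 1 of them, and single values are uncertain to that extent. The promoters are shown for a shared box. CCAAT, the box of NF-Y, was searched on both strands and found in 227 of 517 windows of ZNF genes (43.9%). It was in 45.5% of the windows of raised genes, and in 37.5% of those of raised genes other than ZNF. The share was 31.9% for lowered genes and 34.6% for all windows and for those of genes on the array. The box is not particular to ZNF genes, since 48.4% of windows of the replication and G1 and S phase lists held it. The 150 bases before the start of ZNF90 (3.65-fold higher) and ZNF724 (3.01-fold higher) are printed with the box in capitals.
ZNF90 promoter, chr19:20077850-20077999, plus strand: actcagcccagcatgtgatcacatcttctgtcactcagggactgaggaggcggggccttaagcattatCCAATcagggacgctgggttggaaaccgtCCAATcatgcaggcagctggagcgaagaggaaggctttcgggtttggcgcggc
ZNF724 promoter, chr19:23250395-23250544, minus strand: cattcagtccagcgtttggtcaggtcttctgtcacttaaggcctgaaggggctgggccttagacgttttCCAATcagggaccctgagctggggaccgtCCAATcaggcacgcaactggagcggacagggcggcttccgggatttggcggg
Both windows hold the box at nearly the same places, 82 and 53 bases before the start of ZNF90 and 81 and 52 before that of ZNF724. Both also hold the E2F motif TTTGGCG, left in small letters here. That motif was in 40 of the 517 windows of ZNF genes (7.74%), against 3.97% of those of genes on the array.

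**Figure D5:**
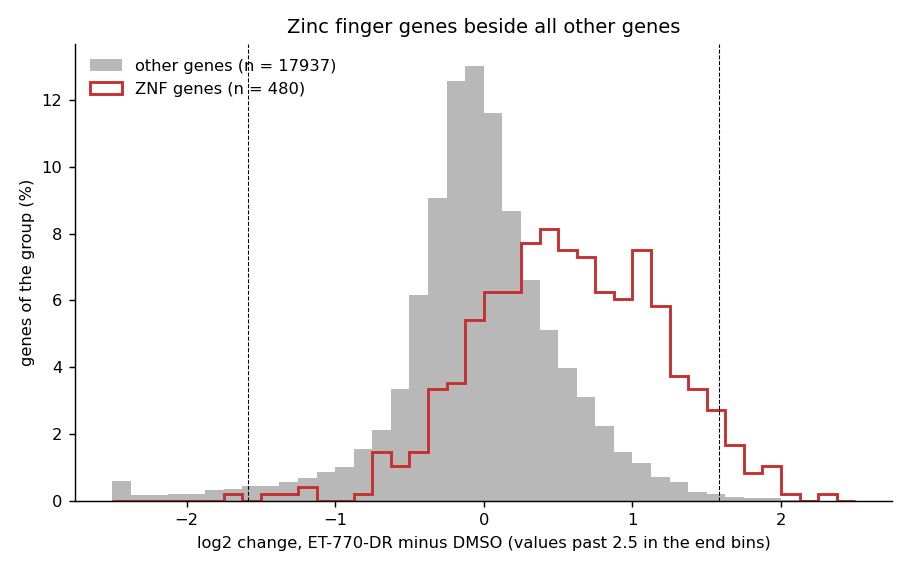
Distribution of the log2 change between ET-770-DR and DMSO for 480 ZNF genes (red line) and the other 17937 genes (grey), each as a percentage of its group, with dashed lines at 3-fold. The red distribution lies to the right, with medians of 0.56 for ZNF genes and -0.04 for the others, and 1 of the 480 and 390 of the 17937 are over 3-fold lower.

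Several housekeeping lists stayed near their DMSO levels. The 82 respiratory chain subunits had a median of 0.04 and none past 2-fold, the 45 proteasome subunits 0.26 and none past 2-fold, and the 22 heat shock genes 0.33 and none past 2-fold. Medians were 0.32 in 72 mitochondrial ribosomal proteins, 0.30 in 35 aminoacyl-tRNA synthetases and 0.30 in 91 genes of the RNA polymerase II machinery. Each of the 3 held up to 4 genes over 2-fold higher. Over 2-fold lower were 2 of the synthetases, 3 of the polymerase machinery genes, CDK19 among them, and none of the mitochondrial ribosomal proteins. In most of these lists the majority turns when the control is the average of the 3 DMSO arrays without further normalization, so their small positive medians have no settled direction. With quantile normalization as well, the respiratory chain was mostly lower (78.0%) and the proteasome was not (42.2%). Long members stood apart in these lists as well: the mitochondrial synthetase FARS2, of 522 kb, went from 8.33 to 6.0, and the mitochondrial carrier SLC25A13, of 202 kb, from 9.96 to 8.37.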

How the data were processed

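U373MG cells were profiled on Human Gene 1.0 ST arrays (probes lie along the whole transcript) in 3 independent experiments of 1 compound array and 1 DMSO array. The deposited values are log2 signals which the authors obtained by RMA in Affymetrix Expression Console, per the labels and the methods of the study (versions not given in the sources used here). Whether the experiments were normalized together was not stated. Arrays give no read depth, and their number limits the precision.

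Of 33297 probes, 19460 carry 1 gene symbol in the platform annotation and were averaged per gene on the log2 scale, 1754 carry several and 12083 none. This gave 18417 genes, 769 of them with several probes, whose log2 changes spread by a median of 0.16 and by over 1 in 35 genes. For 1 symbol, 2 gene identifiers were averaged as 1 gene. The change of a gene is the ET-770-DR signal minus that of its own DMSO array, and over 3-fold in either direction follows the threshold in the methods of the study. No test was run. Genomic lengths (18388 genes), chromosomes and promoter windows came from RefSeq tables of GRCh38.p14, matched by gene identifier or symbol. Some genes of the lists are not analysed here. The members and lists were chosen with earlier results of these data known. Genes were named by rule: the 15 largest rises and falls, the members of each list past 3-fold (the 6 largest where there were more, the 2 largest changes where there were none), and key genes marked in the lists, 226 in all. Genes outside it, such as short lowered genes, unchanged long genes, genes near the threshold and those named for a motif or as an example in a list, were chosen after their values were seen. The counting was tested on simulated data of the ET-770-DR pair over 18417 genes, where 200 of 200 lowered and 100 of 100 raised genes were recovered with 0 false calls. The planted changes were all past 3-fold and the added noise was small. This run therefore checks the counting steps and says nothing on how reliable the calls in the real arrays are. Alternatives changed the control, normalization, centring, probe choice, dim-gene filter and fold. The tools were pandas 2.3.3 and numpy 2.4.6 under Python 3.11.15, with scipy 1.17.1 for intervals and matplotlib 3.10.9 for plots.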

Additional observations from a re-analysis of the deposited data

Results flagged for a closer look

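Probes that carry no gene symbol lie outside the comparison of genes, and many of them were higher after exposure to ET-770-DR. Of 12083 such probes, 324 (2.68%) had a signal more than 3-fold higher than in DMSO and 55 (0.455%) one more than 3-fold lower, whereas 0.51% of the named genes were over 3-fold higher. The 324 probes were dim in vehicle-treated cells, with a median log2 signal of 4.07, against 5.50 over all probes without a symbol. In the other experiments 99 probes without a symbol were over 3-fold higher with ET-770 and 65 with RM. What these probes read was not given in the annotation used here, and the part of their low signal in the result was not tested. Of the 1754 probes with several symbols, 8 were over 3-fold higher and 9 over 3-fold lower.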

How the results depend on the processing

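No paired analysis was possible because each group holds 1 array, and for the same reason no replicate could be left out. Against the averaged DMSO signal of the 3 experiments, 590 genes were over 3-fold lower and 90.2% of the genes past 3-fold were lower. Of genes over 300 kb 96.0% were then lower than DMSO in place of 88.8%, and the members were mostly lower in 41 of 53 gene lists in place of 22. The median of all genes was then -0.25, and 209 of the 226 named genes kept their sign. With quantile normalization and the averaged control together, that median was -0.08, 213 kept their sign and 30 of the 53 lists were mostly lower. The majority turned in 21 lists under at least 1 alternative, among them the ribosomal proteins, the BCL2 family, mitosis and the proteasome. Quantile normalization left the counts within 1.5 times, but 85.4% of the genes past 3-fold were then lower. At 2-fold, 909 genes were lower and 708 higher, and 56.2% of both together were lower. With a log2 signal of at least 6 in the brighter array, 96.7% of genes over 300 kb were lower than DMSO. Among alternatives added after the data were seen, a mean signal of at least 8 gave 97.0%, and counting every probe, named or not, gave 430 higher, with 52.6% of the probes past 3-fold lower. The causes of these shifts were not tested. Of the 391 lowered genes, 366 stayed over 3-fold lower against the mean of the 3 DMSO arrays, all 391 after quantile normalization and 343 with both. Of the 94 raised genes, 37, 73 and 50 stayed over 3-fold higher, so that the raised genes depended more on the control than the lowered ones. Of the 124 named genes past 3-fold, 103, 116 and 109 stayed so. The brightest probe of a gene, and centring on the median, each took 1 of them below 3-fold. Dim signals limit what can be seen: a gene near the floor of the array in DMSO cannot be read as lower.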
